A study of Mus musculus with 16 samples.

Results

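The mitochondrial ribosomal protein genes were taken as the protein-coding rows of a mouse liver count table whose symbols begin with Mrpl or Mrps followed by a number, and which had at least 10 counts in at least 4 of the 16 livers. Of 53801 rows, 78 carried such a symbol and 77 met the count rule, 48 with an Mrpl and 29 with an Mrps symbol. All 77 were among the 14351 genes tested. The livers fell into 4 groups of 4: mice with a liver-restricted knockout of Degs1 on a high-fat diet, control mice on the same diet, knockouts on normal chow and controls on normal chow. Degs1 encodes dihydroceramide desaturase, the enzyme that inserts the double bond of ceramides. The sources used here do not name the Cre driver, the genotype of the controls, the strain, sex or age of the mice, or the length of feeding. Each title carries its own animal number, so each liver was treated as a separate animal.

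The mitochondrial ribosome translates the few messages of mitochondrial DNA, which encode core subunits of the respiratory chain. Its RNAs are transcribed in the organelle, whereas every one of its proteins is encoded in the nucleus, made in the cytosol and imported. Many of the proteins have bacterial counterparts and others occur in mitochondria alone, and the liver, rich in mitochondria, depends on them to maintain oxidative phosphorylation. By the symbols, Mrpl genes encode proteins of the large subunit and Mrps genes proteins of the small subunit. In the known mammalian structures Mrps18a and Mrps30 sit in the large subunit, and Mrps36 is better known as a component of the ketoglutarate dehydrogenase complex. Genes are grouped here by symbol alone.

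Library totals ranged from 11938596 to 23250885 counts, and 3 counts in a library corresponded to 0.135 to 0.293 CPM (counts scaled to library size, with edgeR's TMM factors). Degs1 was at 26.1 to 41.6 CPM in high-fat knockouts against 60.2 to 101 CPM in high-fat controls, and at 35.9 to 39.3 CPM in chow knockouts against 80.4 to 87.9 CPM in chow controls. By edgeR this was a log2 fold change of -1.23 (SE 0.17, adjusted p = 0.00376) among high-fat livers and of -1.16 (SE 0.17, adjusted p = 0.0123) among chow livers. All 7 hepatocyte markers, led by Alb, were detected in every liver. Their summed level was 58700 to 80170 CPM in high-fat knockouts, 77890 to 114800 CPM in high-fat controls, 115000 to 135600 CPM in chow knockouts and 104800 to 123500 CPM in chow controls. Summed markers of skeletal muscle and pancreas stayed at or under 3.33 CPM in every liver, and those of white and brown fat reached 15.7 and 10.9 CPM among high-fat knockouts. Of the brown fat markers, Cidea reached 210 counts and was at 0 in 5 livers, whereas Ucp1 reached 2 counts and was at 0 in 13. Of the white fat markers, Adipoq, Plin1 and the leptin gene Lep reached 99, 61 and 76 counts. They were at 0 in 10, 10 and 12 livers. In bulk liver RNA, fewer cells of a type and less RNA per cell cannot be told apart.

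Liver 3 of the high-fat controls stood apart. It had the highest level of all 16 livers for 62 of the 77 genes, against 19.95% of all genes tested, and it lay above every other high-fat liver for 73 of the 77, against 29.4% of all genes tested. The 77 genes summed to 3106 CPM there, whereas the other high-fat controls had 1822, 1755 and 1947 CPM. The 15 genes not highest in it included Mrpl37, Mrpl38, Mrpl39, Mrpl45, Mrpl47, Mrps2, Mrps5 and Mrps12. Mrps2 and Mrps5, both of the small-subunit core, were the only members below their own 16-liver mean in that liver.

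Levels compared between genes were divided by exon length, as CPM per kilobase averaged over the 16 livers. The highest was Mrpl34, a short large-subunit protein with a bacterial counterpart, at 37.1 CPM per kilobase. It was followed by Mrpl2 at 30.8, Mrps7 at 29.3, Mrpl27 at 28.1 and Mrpl14 at 27.2 CPM per kilobase, all with bacterial counterparts. The median of the 77 was 9.79 CPM per kilobase. At the low end stood Mrpl23 at 0.737, Mrps25 at 1.68, Mrps36 at 1.97, Mrps33 at 2.12 and Mrps10 at 2.31 CPM per kilobase. The length taken matters: on the longest transcript in place of all exons, Mrps21 ranked first and Mrpl34 ranked 5, while Mrpl23 and Mrps25 kept the lowest ranks. The proteins are parts of one particle, yet the highest and lowest levels differed 50.3-fold.

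The weakest members by count were Mrps36, with a mean of 41.5 counts, Mrps33 with 57.4 and Mrpl23 with 59.7. Mrps36 was also the 1 member that missed 10 counts in a liver, at 6 counts in chow knockout 1. Just outside the rule lay Mrpl53, a large-subunit gene on chromosome 6, which reached 10 counts in 0 livers and had a mean of 0.625 counts. In GENCODE M21, 88% of the Mrpl53 exon length overlaps another protein-coding gene on the same strand, Gm42688. Exons of 32 of the 77 members overlap another gene, and 16 members share at least 10% of their exon length. For Mrps25 the shared part was 69.8%, with Nr2c2 on the opposite strand. For Mrps34 it was 63.4%, with Mapk8ip3 on the opposite strand, and 37%, with Nme3 on the same strand. Same-strand overlaps, found for 7 members, cannot be separated by strand. The sources used here do not say whether strand was used in counting, so levels of these genes are uncertain. The 5 matching pseudogene rows, none of them members, reached at most 14 counts.

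Across 15 livers, without high-fat control 3, the median coefficient of variation was 16.8% for the 77 genes and 22.95% for all genes tested. The liver left out was the highest for 62 of the 77 genes, against 19.95% of all genes tested. Its removal therefore favours a low spread in the 77, and no comparison with it kept is given. The 77 genes also had a higher median level, at 23.25 CPM against 11.87 CPM for genes tested, without matching for level. These values do not show that the 77 genes vary less than others. The genes lie on 17 chromosomes, with 11 on chromosome 11. A neighbouring gene on the other strand starts within 1000 bases of the start of 23 of the 77, or 29.9%, against 12.7% of the protein-coding genes tested. Among these head-to-head neighbours were Mrpl36 with the complex I subunit gene Ndufs6, Mrps12 with the mitochondrial seryl-tRNA synthetase gene Sars2, Mrps27 with Ptcd2 and Mrpl57 with Ska3.

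RefSeq start regions (250 bases before to 50 bases after the start, GRCm38.p6) were held for 68 of the 77 genes and searched on both strands for 7 motifs. Each gene was counted once, on a match in any of its windows. Genes with several windows, such as Mrpl2, Mrpl48 and Mrps16, thus had more chances of a match. The motif CCGGAAG, bound by ETS factors such as the nuclear respiratory factor GABP, occurred in 25 of 68 genes, or 36.8%, against 19.3% of the genes tested and 9.9% of all 27025 genes with a window. AAGATGG, the core of the YY1 motif, occurred in 13, or 19.1%, against 8.3% and 7.3%. The NRF1 palindrome occurred in 3, or 4.4%, against 2.3% and 1.1%: Mrpl32, Mrpl39 and Mrpl9. GGGCGG, the SP motif, occurred in 50% of the 68 genes against 66.1% of genes tested, CCAAT in 38.2% against 42.7%, TATAAA in 7.4% against 9.4% and CACGTG in 7.4% against 11.6%. No ETS match overlapped a YY1 match, an SP match overlapped an ETS match in at most 2 genes, and 34 of 68 genes held an ETS or a YY1 match, against 25.8% of the genes tested. A match describes the letters only. The windows of 5 genes are shown, chosen by their test results in the comparisons below. Mrpl47 and Mrpl39 passed the test between diets in knockouts, Mrpl57 and Mrpl18 were among the 3 genes with the smallest p-values between knockout and control on the high-fat diet, and Mrps12 had the smallest on chow. Each is printed 5′ to 3′ on the strand of its gene, with ETS, YY1 and NRF1 matches in capitals. The YY1 match of Mrps12 is on the other strand, as CCATCTT. Mrpl47 holds none of the 7 motifs.
Mrpl47 (chr3:32736706-32737005, minus strand): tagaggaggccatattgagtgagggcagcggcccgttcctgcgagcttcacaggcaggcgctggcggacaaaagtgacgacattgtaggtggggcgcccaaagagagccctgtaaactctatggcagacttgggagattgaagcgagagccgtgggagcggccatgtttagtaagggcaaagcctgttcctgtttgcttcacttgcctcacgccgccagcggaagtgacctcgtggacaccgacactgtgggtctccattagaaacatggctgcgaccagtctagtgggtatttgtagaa
Mrpl39 (chr16:84735195-84735494, minus strand): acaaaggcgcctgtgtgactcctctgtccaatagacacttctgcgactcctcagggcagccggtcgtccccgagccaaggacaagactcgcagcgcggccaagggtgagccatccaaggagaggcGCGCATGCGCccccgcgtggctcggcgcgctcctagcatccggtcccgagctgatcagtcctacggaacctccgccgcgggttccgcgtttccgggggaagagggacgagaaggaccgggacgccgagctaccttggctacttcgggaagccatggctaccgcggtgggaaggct
Mrpl18 (chr17:12916042-12916341, minus strand): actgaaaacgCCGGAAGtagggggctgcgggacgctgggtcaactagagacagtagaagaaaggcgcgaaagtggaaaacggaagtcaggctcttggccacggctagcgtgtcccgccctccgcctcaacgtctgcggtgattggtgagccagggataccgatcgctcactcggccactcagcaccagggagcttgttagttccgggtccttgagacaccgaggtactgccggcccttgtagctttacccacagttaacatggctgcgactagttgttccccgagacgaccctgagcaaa
Mrpl57 (chr14:57825989-57826288, plus strand): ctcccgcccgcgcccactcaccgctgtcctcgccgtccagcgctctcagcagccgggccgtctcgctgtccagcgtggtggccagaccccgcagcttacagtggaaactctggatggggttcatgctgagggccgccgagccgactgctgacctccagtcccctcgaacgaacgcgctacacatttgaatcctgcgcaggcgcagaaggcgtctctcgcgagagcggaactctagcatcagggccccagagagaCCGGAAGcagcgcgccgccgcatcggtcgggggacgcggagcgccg
Mrps12 (chr7:28741772-28742071, minus strand): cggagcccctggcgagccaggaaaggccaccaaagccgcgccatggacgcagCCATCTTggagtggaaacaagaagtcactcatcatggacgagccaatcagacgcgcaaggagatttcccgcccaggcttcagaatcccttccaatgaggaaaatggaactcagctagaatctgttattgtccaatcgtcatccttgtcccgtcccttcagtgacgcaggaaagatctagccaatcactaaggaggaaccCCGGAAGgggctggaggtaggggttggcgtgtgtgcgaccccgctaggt

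**Figure D1:**
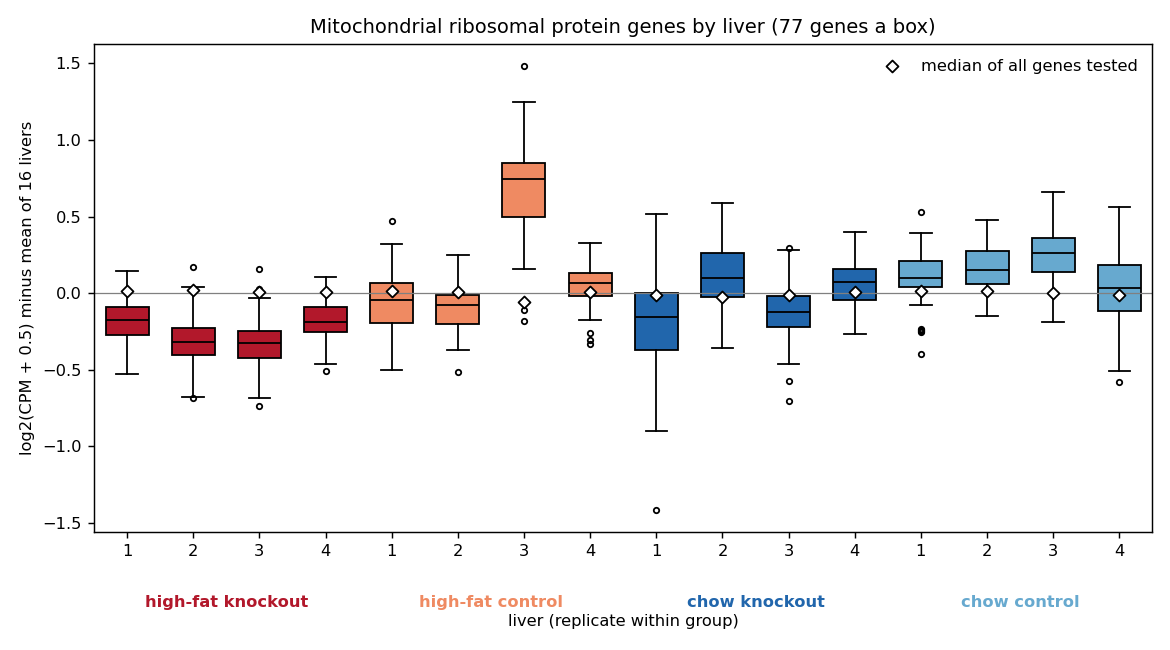
Box plots of the 77 genes in each of the 16 livers. The y axis is log2(CPM + 0.5) minus the mean of that gene over 16 livers, boxes run between quartiles, the line is the median, whiskers reach the farthest gene within 1.5 box heights, and diamonds mark the median of all genes tested. Medians of the 4 high-fat knockouts lie between -0.33 and -0.17, high-fat control 3 lies at 0.745, and chow control livers lie between 0.03 and 0.26.

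In high-fat knockouts, every one of the 77 genes had a lower fitted level than in high-fat controls. The 77 genes summed to 1655, 1487, 1464 and 1644 CPM in the 4 high-fat knockouts, against 1822, 1755, 3106 and 1947 CPM in the 4 high-fat controls. The 4 knockout sums all lay under the 4 control sums, with means of 1562 ± 101 CPM among knockouts and 2158 ± 637 CPM among controls (SD, n = 4 each). The median log2 fold change was -0.46, against 0.03 for all genes tested, with a range from -0.81 for Mrpl14 to -0.05 for Mrpl37. No single gene passed the test: edgeR called 0 of 77 lower and 0 higher at an adjusted p under 0.05, where it called 0.0488% of all genes lower and 0.0627% higher. At an unadjusted p under 0.05, 50 of the 77 were lower, against 12.8% of all genes, and 0 were higher, against 8.54%. For 24 of the 77, each knockout liver lay below each control liver, against 7.78% of all genes, and 0 lay above, against 5.46%. DESeq2 called 8 of the 77 lower, against 2.56% of all genes: Mrpl11, Mrpl13, Mrpl18, Mrpl30, Mrpl47, Mrpl57, Mrps16 and Mrps17. With high-fat control 3 left out, DESeq2 called 0 of the 77, against 0.396% of all genes lower, with 16 lower at an unadjusted p under 0.05, against 6.22%.

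The size of this difference rested on high-fat control 3. Without it the median log2 fold change was -0.21, with 75 of 77 genes below 0 and 17 lower at an unadjusted p under 0.05, against 5.68% of all genes. Single genes then ranged from -0.49 for Mrpl47 to 0.03 for Mrpl23, and edgeR called 0 of them. With that liver set aside, 25 of the 77 genes were lower in each of the 4 knockouts than in each of the other 3 controls, against 10.2% of all genes, and 0 were higher, against 6.86%. Leaving out a liver cannot undo a separation, so this count could not fall below the 24 genes apart with all controls. It therefore does not show how far the separation rested on that liver.

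The share of counts on sense-intronic features and on TEC features (annotated transcripts that still await experimental proof) moved with the groups. It was 0.162%, 0.191%, 0.165% and 0.166% in high-fat knockouts, against 0.164%, 0.123%, 0.0218% and 0.0512% in high-fat controls. High-fat control 3 had the lowest share of the 16 livers and high-fat knockout 2 the highest. This share entered as a covariate on the log2 scale, here and in later fits. With it, the median log2 fold change of the 77 genes was -0.08, against -0.03 for all genes, with 54 of 77 below 0 and 1 lower at an unadjusted p under 0.05, against 3.06% of all genes. The summed hepatocyte markers also ran lower in high-fat knockouts, and their part in the result was not tested.

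**Figure D2:**
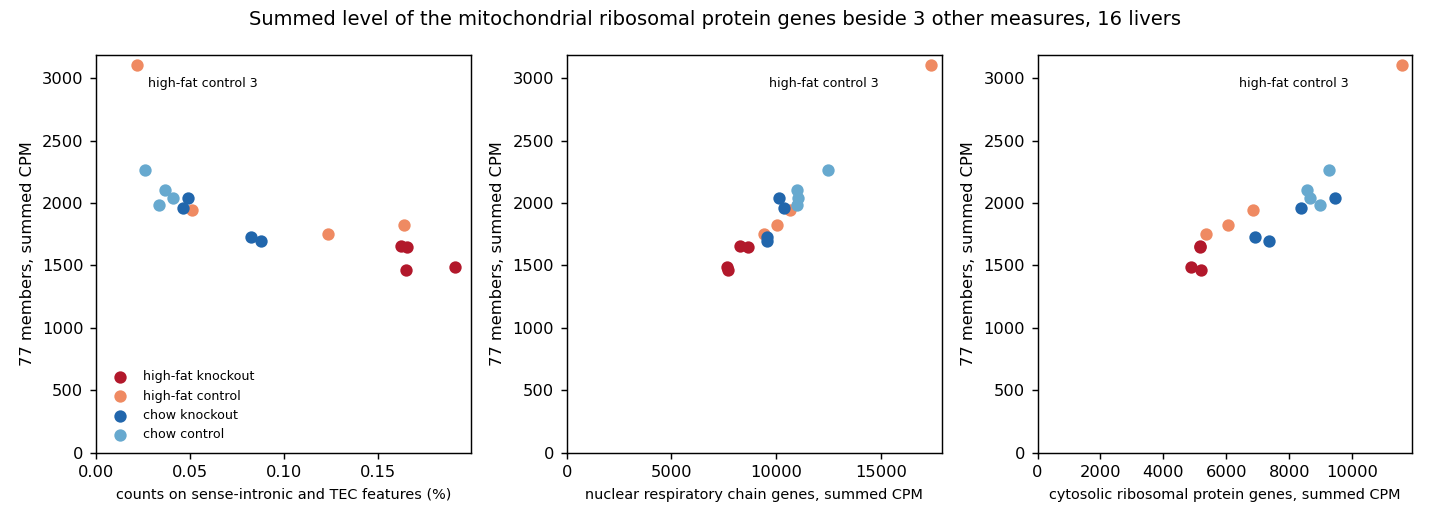
Summed CPM of the 77 genes (y axis) in each of 16 livers against 3 measures on the x axes: the percent of counts on sense-intronic and TEC features, and the summed CPM of nuclear respiratory chain genes and of cytosolic ribosomal protein genes. High-fat control 3, labelled, has the highest sum at 3106 CPM and the lowest share at 0.0218%, and the 4 high-fat knockouts have sums from 1464 to 1655 CPM.

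Mrpl57, a small large-subunit protein found in mitochondria alone, had 17.3, 13.9, 15.1 and 15.6 CPM in high-fat knockouts against 20.01, 20.4, 35.3 and 20 CPM in high-fat controls. The groups did not overlap, and 3 of the 4 controls lay close together under the outlying liver. Its log2 fold change was -0.63 (SE 0.17, adjusted p = 0.103), and -0.36 without high-fat control 3. Mrpl18, which resembles the bacterial protein that binds 5S rRNA, had 32.7, 28.9, 26.0 and 27.7 CPM in high-fat knockouts against 39.5, 34.7, 47.5 and 38.6 CPM in high-fat controls. Every knockout was below every control (log2 fold change -0.48, SE 0.13, adjusted p = 0.103, and -0.37 without high-fat control 3). Mrpl30, another large-subunit protein with a bacterial counterpart, had 33.95, 28.5, 32.8 and 38.5 CPM in high-fat knockouts against 46.7, 40.1, 71.7 and 42.9 CPM in high-fat controls. These groups did not overlap either, at a log2 fold change of -0.59 (SE 0.16, adjusted p = 0.103), and -0.35 without high-fat control 3.

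Mrpl13, a large-subunit protein with a bacterial counterpart, had 23.4, 21.5, 23.2 and 26.1 CPM in high-fat knockouts against 35.3, 24.9, 66.6 and 30.6 CPM in high-fat controls. Knockout 4 lay above control 2, so the groups overlapped, and the log2 fold change of -0.74 (SE 0.22, adjusted p = 0.107) became -0.34 without control 3. Mrps17, of the small-subunit core, had 32.7, 29.6, 30.3 and 30.6 CPM in high-fat knockouts against 40.0, 33.1, 71.8 and 42.1 CPM in high-fat controls. Its knockouts were tightly grouped below all controls, and its log2 fold change of -0.60 (SE 0.18, adjusted p = 0.108) became -0.30 without control 3. Mrpl47, the counterpart of a bacterial protein at the exit of the peptide tunnel, moved least of these 6 genes with that liver: its log2 fold change of -0.59 (SE 0.17, adjusted p = 0.103) became -0.49.

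At the other end, Mrpl37, a large-subunit protein found in mitochondria alone, had 25.4, 21.7, 24.5 and 21.6 CPM in high-fat knockouts against 22.9, 22.8, 26.9 and 23.6 CPM in high-fat controls. The groups overlapped fully (log2 fold change -0.05, SE 0.14, adjusted p = 0.865), and the sign turned to 0.03 without high-fat control 3. Mrps5, of the small-subunit core, had 21.1, 19.9, 19.7 and 22.6 CPM in high-fat knockouts against 25.3, 22.4, 20.5 and 24.9 CPM in high-fat controls. Its groups overlapped too (log2 fold change -0.16, SE 0.14, adjusted p = 0.516, and -0.20 without control 3).

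**Figure D3:**
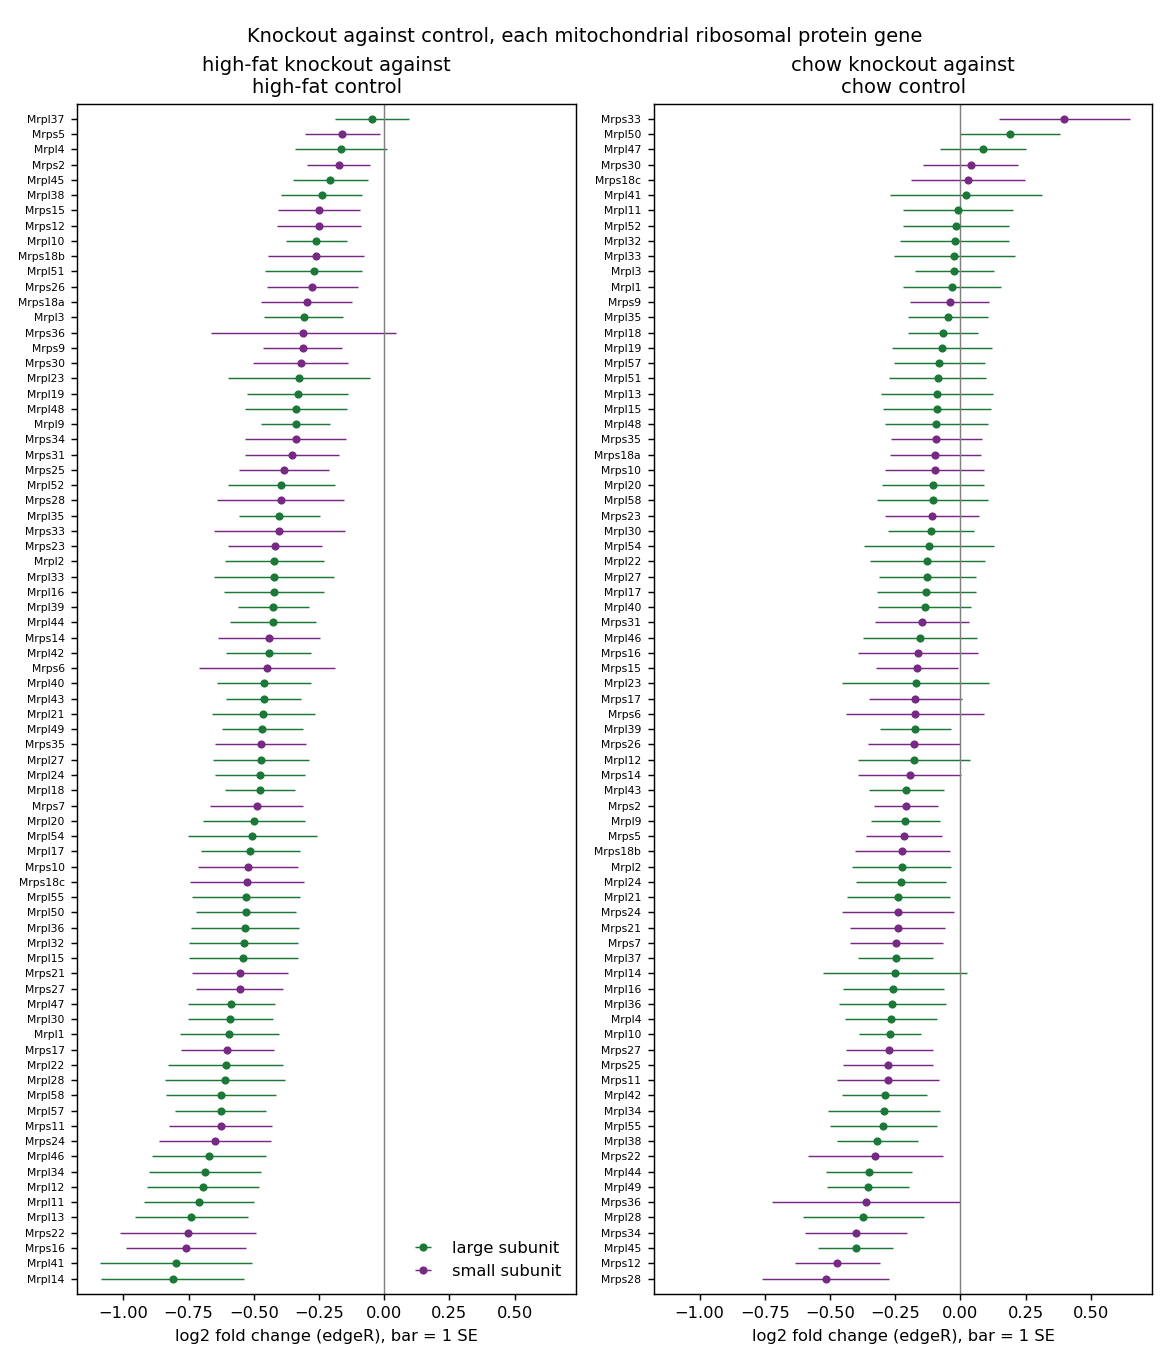
Log2 fold change (x axis) of each of the 77 genes with a bar of 1 SE to each side, for high-fat knockout against high-fat control (left) and chow knockout against chow control (right), each panel sorted by its own values and coloured by the subunit in the symbol. All 77 points lie below 0 on the high-fat diet, from -0.81 to -0.05, and 71 of 77 lie below 0 on chow, from -0.52 to 0.40.

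By role, the stalk that recruits translation factors comprises Mrpl10, Mrpl11 and Mrpl12. Mrpl12, the mobile stalk protein, had 28.1, 27.4, 23.6 and 27.7 CPM in high-fat knockouts against 35.7, 35.2, 70.7 and 31.3 CPM in high-fat controls. Its groups did not overlap, with control 3 far above the other controls (log2 fold change -0.69, SE 0.21, adjusted p = 0.112, and -0.33 without control 3). Mrpl11 was at 16.2 ± 1.27 CPM in high-fat knockouts and 26.4 ± 11.99 CPM in high-fat controls (SD, n = 4 each), and Mrpl10 at 33.96 ± 1.27 CPM in high-fat knockouts and 40.7 ± 5.81 CPM in high-fat controls. The spread of the controls was the wider one in both, and their log2 fold changes were -0.71 and -0.26, or -0.33 and -0.14 without control 3.

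In the small-subunit core, Mrps12, part of the decoding centre, was at 24.9 ± 2.35 CPM in high-fat knockouts and 29.6 ± 5.19 CPM in high-fat controls. Mrps2 was at 22.6 ± 1.67 CPM in high-fat knockouts and 25.5 ± 2.03 CPM in high-fat controls. Mrps7, which binds the head of the small subunit, was at 49.9 ± 4.05 CPM in high-fat knockouts and 70.0 ± 22.8 CPM in high-fat controls. Mrps16 averaged 17.1 ± 2.41 CPM among high-fat knockouts and 29.1 ± 14.3 CPM among high-fat controls. Mrps22, a protein of mitochondria alone, averaged 19.0 ± 3.79 CPM among high-fat knockouts and 32.0 ± 14.3 CPM among high-fat controls (SD over 4 livers). These 5 genes had log2 fold changes of -0.25, -0.17, -0.49, -0.76 and -0.75, so core proteins with bacterial counterparts lay at both ends of the range. Without high-fat control 3 the values were -0.13, -0.19, -0.22, -0.36 and -0.39. Mrps27, which has RNA-binding repeats, was at 16.97 ± 1.48 CPM in high-fat knockouts and 24.9 ± 5.004 CPM in high-fat controls without overlap (log2 fold change -0.55, SE 0.17, adjusted p = 0.109, and -0.39 without control 3). Mrps34, mutated in some human mitochondrial diseases, was at 23.0 ± 0.975 CPM in high-fat knockouts and 29.1 ± 10.03 CPM in high-fat controls with overlap (log2 fold change -0.34, adjusted p = 0.314, and -0.06 without control 3). Its exons overlap Mapk8ip3 and Nme3, as given above, so its level is uncertain.

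Among large-subunit proteins, Mrpl3 and Mrpl4, both core proteins lying deep in the subunit, had log2 fold changes of -0.31 (SE 0.15, adjusted p = 0.245) and -0.17 (SE 0.18, adjusted p = 0.587), or -0.10 and -0.06 without high-fat control 3. Mrpl44, which has a ribonuclease III-like fold, was at 16.2 ± 0.678 CPM in high-fat knockouts and 21.8 ± 6.74 CPM in high-fat controls without overlap (log2 fold change -0.43, and -0.17 without control 3). Mrpl45, which lies at the exit of the peptide tunnel by the inner membrane, was at 25.6 ± 2.34 CPM in high-fat knockouts and 29.5 ± 5.66 CPM in high-fat controls with overlap (log2 fold change -0.21, and -0.14 without control 3). Mrpl58, a peptidyl-tRNA hydrolase that rescues stalled ribosomes and is also built into the large subunit, averaged 18.7 ± 2.10 CPM among high-fat knockouts and 28.9 ± 12.96 CPM among high-fat controls, without overlap (log2 fold change -0.63, SE 0.21, adjusted p = 0.123, and -0.25 without control 3). Mrpl41 was at 12.8 ± 1.23 CPM in high-fat knockouts and 22.3 ± 14.7 CPM in high-fat controls, and only liver 3 lay far from the other controls (log2 fold change -0.80, and -0.21 without it). The 3 Mrps18 paralogs had log2 fold changes of -0.30 for Mrps18a, -0.26 for Mrps18b and -0.53 for Mrps18c, at adjusted p of 0.326, 0.404 and 0.182. Without control 3 these were -0.07, -0.15 and -0.20. The median was -0.48 for the 48 Mrpl genes and -0.40 for the 29 Mrps genes, or -0.21 and -0.20 without control 3. The ratio of the Mrpl sum to the Mrps sum was 1.97 to 2.03 in high-fat knockouts against 1.96 to 2.14 in high-fat controls.

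On chow the same comparison gave smaller differences. The 77 genes summed to 1696, 2042, 1728 and 1960 CPM in the 4 chow knockouts, against 2040, 2101, 2262 and 1981 CPM in the 4 chow controls, so knockout 2 lay above control 1 and control 4. The median log2 fold change was -0.17, against -0.01 for all genes, and 71 of 77 genes were below 0, against 51% of all genes. edgeR called 0 of 77 lower and 0 higher, where it called 0.0139% of all genes lower and 0% higher, and DESeq2 called 0. At an unadjusted p under 0.05, 6 genes were lower, against 4.42% of all genes, and 0 were higher, against 5.1%. Groups lay apart for 7 genes with knockouts lower, against 2.9% of all genes, and for 0 with knockouts higher, against 3.44%. The 7 were Mrpl9, Mrpl10, Mrpl44, Mrpl45, Mrps12, Mrps17 and Mrps28. The share of counts on sense-intronic and TEC features was 0.0463% to 0.0878% in chow knockouts against 0.0263% to 0.0411% in chow controls, without overlap. With it as a covariate the median turned to 0.08, against -0.02 for all genes.

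Mrps12, part of the decoding centre, had 15.8, 25, 23.4 and 25.8 CPM in chow knockouts against 30.2, 31.3, 36 and 27.6 CPM in chow controls. All knockouts were below all controls, with knockout 1 the farthest (log2 fold change -0.47, SE 0.16, adjusted p = 0.435, and -0.33 without knockout 1). Mrpl45 had 21.6, 28.2, 24.5 and 26.2 CPM in chow knockouts against 30.9, 32.0, 33.1 and 36.8 CPM in chow controls. These groups were likewise apart (log2 fold change -0.40, SE 0.14, adjusted p = 0.442). Mrps28, of the small subunit, had 8.97, 18.7, 14.1 and 17.8 CPM in chow knockouts against 21.0, 20.1, 21.9 and 22.5 CPM in chow controls. The controls were tight and knockout 1 was at less than any other liver (log2 fold change -0.52, SE 0.24, adjusted p = 0.522). Mrpl44 was at 17.5 ± 1.20 CPM in chow knockouts and 22.3 ± 2.12 CPM in chow controls (SD over 4 livers). Mrpl10 was at 37.5 ± 3.21 CPM in chow knockouts and 45.2 ± 2.88 CPM in chow controls. Mrpl49, a large-subunit protein, was at 24.2 ± 3.82 CPM in chow knockouts and 31.0 ± 2.75 CPM in chow controls. Of these 3 genes only Mrpl49 had overlapping groups.

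Mrps33, a low-level small-subunit gene, ran the other way on chow, with 4.19, 3.26, 4.35 and 4.71 CPM in chow knockouts against 2.84, 3.12, 4.16 and 2.39 CPM in chow controls. Its groups overlapped through control 3 (log2 fold change 0.40, SE 0.25, adjusted p = 0.611). Mrpl50, a large-subunit protein of mitochondria alone, was at 46.1 ± 3.502 CPM in chow knockouts and 40.4 ± 2.47 CPM in chow controls (log2 fold change 0.19, SE 0.19, adjusted p = 0.764). Chow knockout 1 was the lowest of the 16 livers for 15 of the 77 genes. Without it the median of the 77 was -0.12 with 67 below 0, and 2 were lower at an unadjusted p under 0.05, where 6 were with it. Mrpl45 was then at a log2 fold change of -0.33, Mrps28 at -0.33, Mrpl44 at -0.31, Mrpl10 at -0.23, Mrpl49 at -0.25, Mrps33 at 0.40 and Mrpl50 at 0.16.

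**Figure D4:**
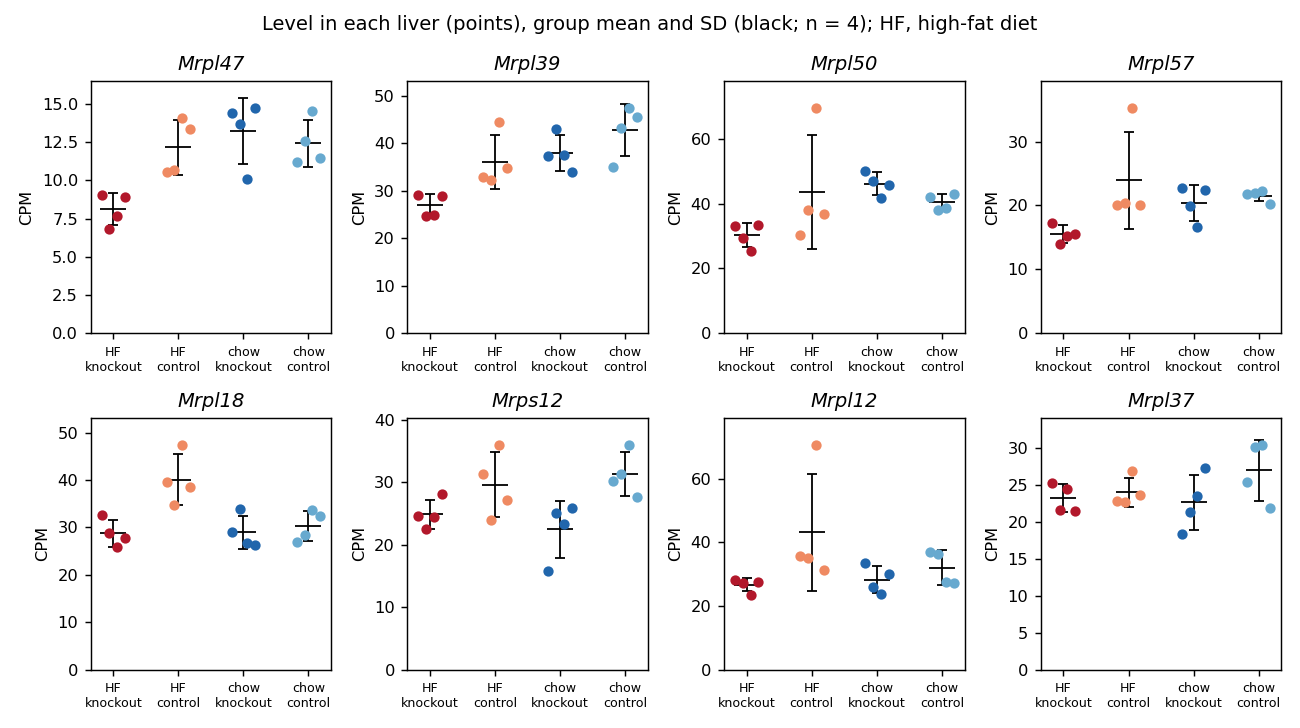
CPM (y axes from 0) of 8 named genes in each liver (points), with the mean and SD of each group of 4 in black. Mrpl47 and Mrpl39 are lower in all 4 high-fat knockouts than in any other liver, Mrpl57 and Mrpl12 show high-fat control 3 far above the other controls, and Mrpl37 overlaps across groups.

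Between diets within knockouts, edgeR called 2 of the 77 genes, Mrpl47 and Mrpl39, lower in high-fat than in chow knockouts and 0 higher. The 2 are 2.6% of the 77, a smaller share than the 5.35% of all genes called lower. Of all genes, 5.21% were called higher. Mrpl47 had 9.04, 6.84, 7.67 and 8.92 CPM in high-fat knockouts against 14.4, 13.7, 10.1 and 14.8 CPM in chow knockouts. All high-fat livers were below all chow livers, chow knockout 3 being the closest. Its log2 fold change was -0.70 (SE 0.17, adjusted p = 0.0147), and 10.2% of its exon length overlaps Actl6a and 13.9% overlaps Ndufb5. Mrpl39, a large-subunit protein with a domain resembling threonyl-tRNA synthetase, had 29.2, 24.6, 24.9 and 28.9 CPM in high-fat knockouts against 37.4, 43.0, 37.5 and 34.01 CPM in chow knockouts. Here too the groups did not overlap (log2 fold change -0.50, SE 0.14, adjusted p = 0.0298). Both calls were lost without high-fat knockout 2, at adjusted p of 0.0655 for Mrpl47 and 0.109 for Mrpl39. The Mrpl47 call was also lost without chow knockout 4 (adjusted p = 0.0515), and the Mrpl39 call without high-fat knockout 1, 3 or 4 (adjusted p = 0.0591, 0.0911 and 0.0506) and without chow knockout 2 or 3 (adjusted p = 0.1096 and 0.060). With the share of sense-intronic and TEC counts as a covariate they had adjusted p of 0.158 and 0.250, and on library totals without scaling factors 0.0974 and 0.370.

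The median log2 fold change of the 77 genes between high-fat and chow knockouts was -0.24, against 0.02 for all genes, with 69 below 0 against 48.1%. At an unadjusted p under 0.05, 14 genes were lower, or 18.2% of the 77, against 14% of all genes, and 0 were higher, against 14.8%. Groups lay apart, with high-fat knockouts lower, for 21 genes, against 12.4% of all genes, and the other way for 0, against 12.1%. Next by p came Mrpl50, with 33.0, 29.4, 25.4 and 33.2 CPM in high-fat knockouts against 50.1, 47.0, 41.7 and 45.6 CPM in chow knockouts. The groups were well apart (log2 fold change -0.61, SE 0.19, adjusted p = 0.0515). Mrpl1, the large-subunit protein of the L1 stalk, was at 27.8 ± 4.05 CPM in high-fat knockouts and 40.6 ± 5.29 CPM in chow knockouts (log2 fold change -0.55, SE 0.19, adjusted p = 0.069). Mrps18c was at 10.7 ± 1.76 CPM in high-fat knockouts and 16.1 ± 1.22 CPM in chow knockouts (adjusted p = 0.090), with 23.2% of its exon length in an overlapping TEC feature. Mrpl35, another large-subunit protein, was at 20.2 ± 3.74 CPM in high-fat knockouts and 26.6 ± 1.71 CPM in chow knockouts (adjusted p = 0.100). The members farthest above 0 were Mrpl23, at 3.55 ± 0.360 CPM in high-fat knockouts and 3.01 ± 0.603 CPM in chow knockouts (log2 fold change 0.24, adjusted p = 0.613), and Mrps12 at 0.14.

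Without high-fat control 3, which belongs to neither group of this comparison, 13 of the 77 genes were called lower, against 10.2% of all genes. Mrpl50, Mrpl1, Mrps18c and Mrpl35 were among them, at adjusted p of 0.00258, 0.0094, 0.0169 and 0.0484. On library totals the median of the 77 was 0.10 and that of all genes 0.36, with 0 of 77 called lower and Mrps12 called higher. The share of sense-intronic and TEC counts was 0.162% to 0.191% in high-fat knockouts against 0.0463% to 0.0878% in chow knockouts, without overlap, so diet and this share cannot be told apart by groups of livers. The fit with it as a covariate gave a median of 0.15, against -0.01 for all genes, with 0 of 77 called lower and Mrps28 called higher.

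Between diets within controls, the direction of the 77 genes changed with the livers and covariates fitted. The median log2 fold change of high-fat against chow controls was 0.02, against 0.01 for all genes, and 33 of 77 genes were below 0, against 48.7% of all genes. edgeR called 0 of 77 in either direction, where it called 0.941% of all genes higher and 0.885% lower, and DESeq2 called 0. At an unadjusted p under 0.05, 1 gene was higher, against 9.98% of all genes, and 1 was lower, against 7.09%. The higher one was Mrpl18, with 39.5, 34.7, 47.5 and 38.6 CPM in high-fat controls against 26.8, 28.5, 33.6 and 32.3 CPM in chow controls. It was the 1 gene whose high-fat controls all lay above the chow controls, against 3.21% of all genes, and 0 genes lay apart the other way, against 4.01% (log2 fold change 0.40, SE 0.13, adjusted p = 0.123, and 0.31 without high-fat control 3). The lower one was Mrpl38, a large-subunit protein of mitochondria alone, with 33.9, 35.9, 46.3 and 32.4 CPM in high-fat controls against 45.0, 54.5, 51.7 and 50.4 CPM in chow controls. Control 3 was the only high-fat liver inside the chow range (log2 fold change -0.44, SE 0.16, adjusted p = 0.1504). Without control 3, Mrpl38 passed at a log2 fold change of -0.565 (adjusted p = 0.0308), and the median of the 77 was -0.16 with 70 below 0. With the share of sense-intronic and TEC counts as a covariate the median was 0.27, against -0.02 for all genes, with 9 of 77 below 0. That fit called 8 of the 77 higher, against 3.37% of all genes, and had 30 higher at an unadjusted p under 0.05, against 11.2%.

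Mrpl41 and Mrpl12 had positive log2 fold changes in this comparison, 0.54 and 0.43, that became -0.04 and 0.09 without high-fat control 3. Mrps15, of the small-subunit core, was at 17.3 ± 3.62 CPM in high-fat controls and 21.1 ± 2.5 CPM in chow controls (log2 fold change -0.29, adjusted p = 0.365, and -0.44 without control 3), and Mrpl39 at 36.1 ± 5.67 CPM in high-fat controls and 42.8 ± 5.53 CPM in chow controls (log2 fold change -0.25, adjusted p = 0.379, and -0.36 without control 3).

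The comparison of knockout with control was set against diet by an interaction term, the log2 fold change on the high-fat diet minus that on chow. No gene of the 14351 passed, in either direction (0% each). The median of the 77 was -0.28, against -0.01 for all genes, and 66 were below 0, against 50.6%. At an unadjusted p under 0.05, 8 were lower, against 5.89% of all genes, and 0 higher, against 5.37%. The smallest p belonged to Mrpl47, at -0.67 (SE 0.23, adjusted p = 0.301), with Mrpl50 at -0.72, Mrpl11 at -0.70, Mrps33 at -0.80, Mrpl57 at -0.55 and Mrpl18 at -0.41. Mrps12 and Mrpl37 stood highest, at 0.22 and 0.20. Without high-fat control 3 the median was -0.07 and 49 of 77 were below 0. DESeq2 also called 0 of the 77.

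**Figure D5:**
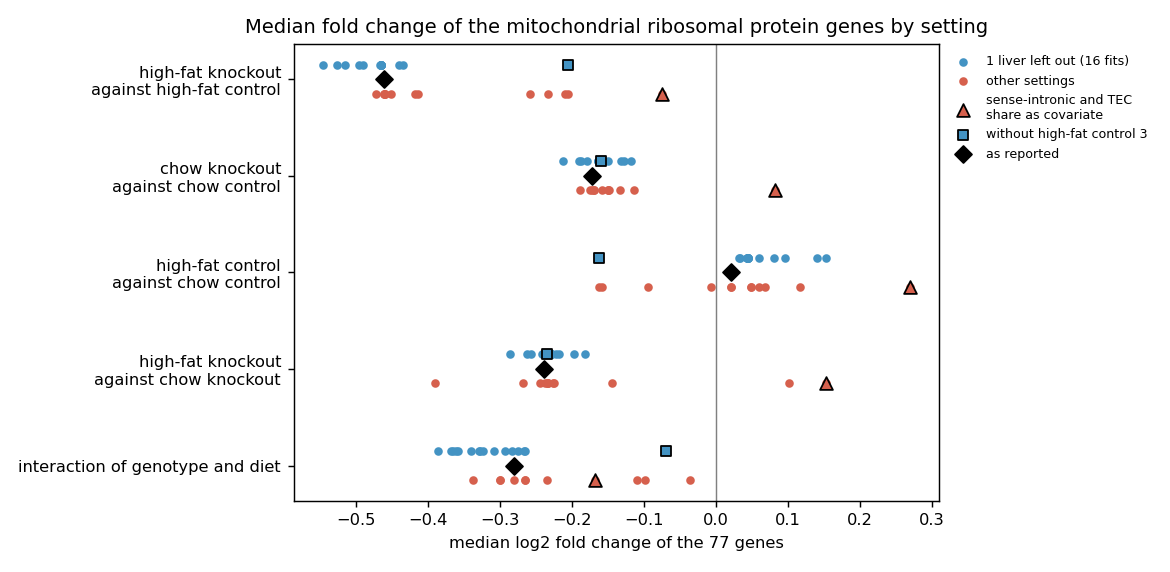
Median log2 fold change of the 77 genes (x axis) in each of 5 comparisons as reported (diamond) and under other settings, with fits that leave out 1 liver above and other settings below. Squares mark edgeR fits without high-fat control 3 alone, where the median of high-fat knockout against high-fat control is -0.21, and triangles mark fits with the sense-intronic and TEC share as a covariate, where it is -0.08.

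Other genes of mitochondrial translation were read from lists, beside the 77. In high-fat knockouts against high-fat controls, the 5 mitoribosomal protein genes with other symbols had a median log2 fold change of -0.46, led by Chchd1 at -0.81 and Gadd45gip1 at -0.58 (adjusted p = 0.114 and 0.134). The median was -0.27 over 29 assembly factor genes, where Mrm2, an rRNA methyltransferase, was at -0.72 and Ngrn at -0.50. It was -0.19 over 20 translation factor genes, led by the initiation factor gene Mtif3 at -0.67 and the recycling factor gene Mrrf at -0.58. It was -0.15 both over 17 aminoacyl-tRNA synthetase genes, led by Yars2 at -0.48 and Hars2 at -0.44, and over 24 transcription and RNA processing genes, led by Hsd17b10 at -0.98 and Fastkd1 at -0.42. edgeR called 0 genes in each of these lists. Of these lists in turn, at an unadjusted p under 0.05, 5 of the 5, 8 of the 29, 8 of the 20, 3 of the 17 and 8 of the 24 were lower, against 12.8% of all genes, and 0 were higher, against 8.54%. Without high-fat control 3 the 5 medians were -0.21, -0.13, -0.17, -0.08 and -0.14, with 1, 2, 4, 1 and 3 genes lower at an unadjusted p under 0.05, against 5.68% of all genes. Chchd1 was then at -0.32, Gadd45gip1 at -0.30, Mrm2 at -0.49, Ngrn at -0.39, Mtif3 at -0.40, Mrrf at -0.35, Yars2 at -0.35, Hars2 at -0.19, Hsd17b10 at -0.69 and Fastkd1 at -0.41.

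Partners of the pathway ranged more widely. Over 25 import genes the median was -0.44, led by the inner-membrane channel gene Timm23 at -0.77 (adjusted p = 0.0635) and Dnajc19 at -0.54. Over 75 nuclear respiratory chain subunits it was -0.62, with all 75 below 0, led by Ndufv2 at -0.77 and Ndufb3 at -0.79, and over 77 cytosolic ribosomal protein genes it was -0.59, also with all below 0, led by Rpl35 at -0.90 and Rps26 at -0.67. Over 10 protease and chaperone genes it was -0.25, led by Hspe1 at -0.89 and Yme1l1 at -0.56. Of the 13 mitochondrially encoded messages, which the mitoribosome translates, only 8 passed the count filter and were tested. These 8 had a median of -0.06, led by mt-Nd3 at -0.53 and mt-Co1 at -0.12. Levels of mt-Nd3 were only 0.572 to 2.57 CPM across the livers. In high-fat knockout 1, mt-Co1 alone held 11000 of the 14380 CPM summed over all 13. The median therefore covers the tested messages only. The 11 biogenesis regulators had a median of 0.20, with Yy1 at -0.22 and Ppargc1b at 0.84. None of these genes was called by edgeR in this comparison, and at an unadjusted p under 0.05, 10 import, 71 respiratory chain, 68 cytosolic ribosomal, 3 protease or chaperone, 0 mitochondrially encoded and 1 biogenesis regulator gene were lower, against the same 12.8% of all genes, and 0 were higher. Without high-fat control 3 the medians were -0.20 for import, -0.32 for respiratory chain, -0.25 for cytosolic ribosomal, -0.18 for protease and chaperone, -0.12 for mitochondrially encoded and 0.07 for regulator genes. That fit had, at an unadjusted p under 0.05, 4, 51, 19, 2, 0 and 0 of them lower, against 5.68% of all genes, and 74 of 75 respiratory and 76 of 77 cytosolic ribosomal genes were below 0. It had 1 regulator gene higher at that threshold and 0 genes of the other lists. Timm23 was then at -0.63, Dnajc19 at -0.35, Ndufv2 at -0.44, Ndufb3 at -0.49, Rpl35 at -0.51, Rps26 at -0.41, Hspe1 at -0.46, Yme1l1 at -0.27, mt-Nd3 at -0.12, mt-Co1 at -0.22, Yy1 at -0.20 and Ppargc1b at 0.60. Relative to the respiratory genes, the 77 summed to 19.0 to 19.95 CPM per 100 CPM in high-fat knockouts against 17.8 to 18.6 CPM in high-fat controls, without overlap, and relative to cytosolic ribosomal protein genes to 28.2 to 32.1 CPM in high-fat knockouts against 26.8 to 32.8 CPM in high-fat controls.

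Between high-fat and chow knockouts, several partners passed the edgeR test. Yy1, a zinc-finger factor whose motif was searched above, had 61.1, 57.7, 63.4 and 60.7 CPM in high-fat knockouts against 89.2, 78.4, 81.6 and 73.0 CPM in chow knockouts. Gabpa, the DNA-binding subunit of GABP, had 47.2, 44.8, 55.0 and 52.7 CPM in high-fat knockouts against 75.3, 73.6, 79.1 and 63.8 CPM in chow knockouts. The groups were apart for each gene, and both genes fell (Yy1 at a log2 fold change of -0.41 and adjusted p = 0.0191, Gabpa at -0.55 and adjusted p = 0.0211). Trmt10c, a subunit of the mitochondrial ribonuclease that processes transfer RNAs, had 14.9, 11.9, 11.5 and 12.9 CPM in high-fat knockouts against 11.4, 36.2, 24.5 and 36.7 CPM in chow knockouts. It fell by 1.09 on the log2 scale (adjusted p = 0.0166), though chow knockout 1 lay below all 4 high-fat knockouts, and by 1.34 without that liver. Timm23 fell as well (log2 fold change -0.65, adjusted p = 0.0183), as did the rRNA methyltransferase gene Nsun4 (-0.49, adjusted p = 0.0421) and Mtfmt, which formylates the initiator transfer RNA (-0.60, adjusted p = 0.0382). Also lower were the import motor chaperone gene Hspa9 (-0.59, adjusted p = 0.0279), the inner-membrane protease gene Yme1l1 (-0.56, adjusted p = 0.0468) and the complex I subunit genes Ndufa6 (-0.47, adjusted p = 0.0320) and Ndufa5 (-0.64, adjusted p = 0.0433). Without chow knockout 1 the calls of Yme1l1 and Ndufa6 were lost (adjusted p = 0.0681 and 0.0533). Fastk, of an RNA-binding family, rose (0.52, adjusted p = 0.0341). By list, edgeR called lower 1 of 29 assembly factors, 1 of 20 translation factors, 0 of 17 synthetases, 1 of 24 transcription and RNA processing genes, 2 of 25 import genes, 2 of 11 biogenesis regulators, 1 of 10 proteases and chaperones and 2 of 75 respiratory chain subunits, and it called Fastk alone higher. Of all genes it called 5.35% lower and 5.21% higher, and these list counts were not tested against those shares. Without high-fat control 3 these counts were 2, 4, 0, 2, 5, 3, 3 and 32, against 10.2% of all genes. Of 77 cytosolic ribosomal protein genes 40 were called lower, against 2 of the 77 mitochondrial ones and 5.35% of all genes. Below 0 were 76 of the cytosolic and 69 of the mitochondrial genes, with medians of -0.67 and -0.24. Without high-fat control 3, edgeR called 69 of the cytosolic genes lower and 13 of the mitochondrial ones, against 10.2% of all genes. The 77 genes summed to 28.2 to 32.1 CPM per 100 CPM of cytosolic ribosomal protein genes in high-fat knockouts against 21.6 to 24.96 CPM in chow knockouts, without overlap. This ratio was also apart by diet in controls, at 26.8 to 32.8 CPM in high-fat controls against 22.1 to 24.5 CPM in chow controls. Between diets in controls, the median log2 fold change of the cytosolic genes was -0.24, or -0.55 without high-fat control 3. All 8 tested mitochondrially encoded messages were below 0 between high-fat and chow knockouts, with a median of -0.985, or -0.50 without chow knockout 1. At an unadjusted p under 0.05, 6 were lower, against 14% of all genes, or 2 without chow knockout 1. edgeR called 2 of the 8 lower, mt-Nd6 and mt-Nd1, named after their values were seen. Without chow knockout 1, mt-Nd1 was not called by edgeR (adjusted p = 0.0639). For mt-Nd6, chow knockout 3 stood far above the rest. It had 63.9, 29.1, 230.4 and 32.3 CPM in chow knockouts against 18.9, 19.2, 21.9 and 20.3 CPM in high-fat knockouts. Whether the mt-Nd6 call holds without chow knockout 3 was not tested. In chow knockouts against chow controls the 8 had a median of 1.05, with 0 called by edgeR and 7 higher at an unadjusted p under 0.05, or 0.69 and 3 without chow knockout 1, which held the most of them, at 33810 CPM summed over all 13.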

How the data were processed

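Per the labels' protocols, total RNA of 16 mouse livers was depleted of ribosomal RNA and made into stranded libraries. The values deposited by the authors are raw counts per gene with no normalization, since they are whole numbers with unequal totals. The submitters' processing notes name GRCm38, STAR 2.5.4a, featureCounts 1.5.1 and DESeq2. What each tool did, how strand and multiply mapped reads were handled, and which annotation was used is not given there. All 16 columns matched a title, and 0 did not. Positions and lengths come from GENCODE M21.

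Groups came from diet and genotype in the labels. Genes were filtered with a minimum count of 10 (filterByExpr), leaving 14351, and tested with edgeR 4.0.16 quasi-likelihood F tests in R 4.3.3, in 1 model of 4 group means over 16 livers, with Benjamini-Hochberg adjustment over all genes and a threshold of 0.05. The common biological coefficient of variation was 0.247. CPM use TMM-scaled library sizes. All 24 within-group pairs of livers differed by more than sampling noise (chi-square per degree of freedom 12.28 to 125.6). Standard errors come from the fit, and 3-count floors cover counting error only. Scripts were tested on simulated data.

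The genes, lists and alternatives were chosen with earlier results of these data known. Named genes are, for each comparison, the 6 with the smallest p and the 2 farthest from the median's sign, plus genes named by role, the 5 highest and 5 lowest per length, and up to 2 per other list, by smallest p in the high-fat knockout comparison. Partners other than cytosolic ribosomal protein genes that passed between diets in knockouts are named in addition, after their values were seen. Alternatives were DESeq2 1.42.0, limma 3.58.1 (voom, with and without quality weights), 3 scalings, 2 filters, only the groups compared, each liver left out, the log2 of the sense-intronic and TEC share as a covariate, and length and GC offsets. DESeq2 without high-fat control 3, and the other lists without that liver or chow knockout 1, were added after seeing the data.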

Additional observations from a re-analysis of the deposited data

Results flagged for a closer look

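Groups of 4 were examined for a liver set apart by Dixon's gap, at the 95% critical value, for 32 measures and 128 groups in all. Chance alone flags about 1 group in 20, and 9 groups passed, 7 of them through high-fat control 3.

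In high-fat controls, liver 3 was set apart for the summed level of the 77 genes at 3106 CPM and for the 48 Mrpl genes at 2118 CPM. It was also set apart for Mrpl57 at 35.3 CPM, Mrpl49 at 43.0 CPM, Mrpl44 at 31.9 CPM, Mrpl12 at 70.7 CPM and Mrpl41 at 44.3 CPM, each the highest of its group. The same liver had the lowest share of sense-intronic and TEC counts of the 16 livers, at 0.0218%, and the highest summed level of respiratory chain genes, at 17410 CPM.

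In high-fat knockouts, liver 2 was set apart for the highest share of sense-intronic and TEC counts, at 0.191%, and liver 3 for the lowest Mrpl12 level, at 23.6 CPM. What sets these livers apart was not tested. No gene passed the test of the interaction of genotype and diet.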

How the results depend on the processing

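Counts of called genes and medians were recomputed under 28 settings per comparison, 29 for high-fat knockouts against high-fat controls and 27 for the interaction. In high-fat knockouts against high-fat controls the median was below 0 in all 29: leaving out 1 liver gave -0.546 to -0.206 (without high-fat control 3), library totals -0.234 (all genes 0.228), high-fat control 3 and chow knockout 1 both left out -0.206, DESeq2 with high-fat control 3 left out -0.21, and the sense-intronic and TEC covariate -0.076. Calls, all lower, numbered 8 by DESeq2 and 16 with no filter (all genes 2.56% and 1.43%). On chow, leaving out 1 liver gave -0.213 to -0.119 and the covariate 0.081. For high-fat against chow controls, leaving out 1 liver gave -0.163 to 0.152 with 0 to 1 called (1 lower without high-fat control 3), and the covariate 0.269 with 8 called higher (all genes 3.37%). Calls were 1 lower with quality weights (2.63%), 1 higher on library totals (2.04%) and 3 lower with both livers left out (2.95%). For high-fat against chow knockouts, leaving out 1 liver gave -0.287 to -0.182 with 0 (without high-fat knockout 2) to 13 called (without high-fat control 3), 4 without chow knockout 1 and 1 without high-fat knockout 1, 3 or 4 or chow knockout 2, 3 or 4, all lower, library totals 0.101 with 1 called higher (all genes 21.9%) and the covariate 0.153 with 1 called higher (2.56%). Lower calls were 26 with quality weights (15.1%), 1 on upper-quartile scaling (3.11%), 10 with only the groups compared (9.89%), 20 with both livers left out (11.2%) and 22 with length and GC offsets (16.1%), which moved the all-gene median to -0.151. The interaction median was -0.387 to -0.07 with 1 liver left out and -0.036 on library totals.

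Single genes changed sign near 0. Mrpl37 in high-fat knockouts against high-fat controls was 0.003 on upper-quartile scaling, 0.167 on library totals, -0.09 to 0.03 with 1 liver left out (0.03 without high-fat control 3), 0.03 with both livers left out, 0.027 by DESeq2 without high-fat control 3 and 0.108 with the covariate. Mrps5 was 0.037 on library totals. Mrpl41 in high-fat against chow controls was -0.023 with quality weights, -0.035 (without high-fat control 3) to 0.734 with 1 liver left out and -0.034 with both left out. Mrps12 in high-fat against chow knockouts was -0.067 with length and GC offsets. Of 1064 recomputed values of named genes, 999 kept direction and side of the threshold, 14 lost and 40 gained significance. Most of the 38 named results were not called as reported and so had no call to lose. Only Mrpl47 and Mrpl39 between diets in knockouts were called, and all 14 losses were theirs. Mrpl47 stayed called in 14 of 16 fits with 1 liver left out, and Mrpl39 in 10. Causes were not tested.

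No paired analysis was possible because the labels give animal numbers and no pairing. The groups hold 4 livers each, and the lowest library total, 11938596 counts, limits low genes such as Mrps36. Of the 77 genes, 32 share exon sequence with another gene.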
